A study of Mus musculus with 115 samples.

Results

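The skin of 5 male C57BL/6 mice (C57BL/6J in the study's methods) aged 2 months was compared with the brain, liver and blood of mice of the same strain, sex and age, to find the genes by which young skin stood out among these tissues. The members were the 5 skin libraries of 2 months, of 25 skin libraries of all ages, 22 libraries of 2 months in the main table and 115 libraries in the series. The other tissues of 2 months had 8 brain, 4 liver and 5 blood libraries, and each tissue was weighted equally. Skin was a piece of hairless abdominal skin of 1 cm2, snap frozen whole. Such a piece mixes epidermis, hair follicles, dermis and whatever fat and muscle came with it. Brain was a hemisphere, liver was a piece of the organ, and blood was whole blood from which globin transcripts had been depleted. The labels name no treatment and no altered gene in any of these groups. The skin and blood libraries came from the same 5 animals. Liver libraries were made with an earlier version of the library kit and an earlier sequencer than the other 3 tissues, so kit and tissue cannot be told apart for liver.

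Skin is built from layers. Keratinocytes of the epidermis divide on a basement membrane, switch from one pair of keratins to another as they move outward, and end as dead cells held in a cornified envelope of cross-linked proteins and lipids. Hair follicles are downgrowths of that epidermis that make their own keratins and keratin-associated proteins, and in the mouse they pass through cycles of growth and rest. Beneath lie a dermis of collagen made by fibroblasts, a layer of fat and, in the mouse, a thin sheet of skeletal muscle.

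Reads assigned to genes numbered 30299800 to 40648322 per skin library, against 35099412 to 46649935 in brain, 23483352 to 31790346 in liver and 29969251 to 30715023 in blood. Values below are CPM (counts scaled to a common library size with TMM factors) unless RPKM is named. Markers of the tissues matched the labels. Albumin (Alb) had a mean of 106999 CPM in liver and 1.18 to 14.0 in skin, and the synaptic gene Snap25 1354 in brain and at most 0.0714 in skin. The beta-globin gene Hbb-bs, which had been targeted by depletion, had 33042 in blood and 72.5 to 448 in skin.

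Replicate 1 of skin stood apart from the other 4 skin libraries. The mean chi-square per gene between its counts and theirs was 488 to 750.0, against 13.3 to 103 among the other 4. The summed level of the hair follicle keratins was 796, 23896, 27537, 29736 and 16872 CPM in replicates 1 to 5, so replicate 1 lay far below the rest. The summed level of the skeletal muscle genes was 82152, 9198, 8996, 9982 and 15845 CPM, and here replicate 1 lay far above. Replicate 1 was lowest in 470 and highest in 490 of the genes distinctive of skin. Over all 20489 genes tested it was lowest in 7619 and highest in 7615, so its extreme place was not limited to the distinctive genes. In a piece of whole tissue, fewer cells of a type and less RNA per cell cannot be told apart. The part of hair, muscle or fat content in the other results was not tested.

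Of 20489 genes tested, 14249 (69.5%) differed between young skin and the mean of the other tissues, with 8314 (40.6%) higher in skin and 5935 (29.0%) lower (edgeR quasi-likelihood test, Benjamini-Hochberg adjusted p under 0.05). This mean was taken over log2 levels, so a gene called higher can still lie far below a single tissue. Map2 had 38.0 to 57.2 CPM in skin and 688 to 1005 in brain, and its log2 difference without skin replicate 1 was 1.76. Against single tissues, skin was higher for 41.2% of genes over brain, 40.8% over liver and 48.9% over blood. It was lower for 38.5%, 31.7% and 30.6%. The p-values measure the spread between libraries. Of the genes called, 58.3% were higher in skin, and this share was 88.9% when libraries were scaled by total counts alone. Because so many genes differed, a gene was taken as distinctive of skin only if it was called higher against each tissue, if its mean in skin was at least 8 times the highest mean of another tissue, and if every skin library exceeded every other library.

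By this rule 5.17% of the genes tested were distinctive of young skin, and 28 (0.137%) were distinctively low. The distinctive genes were 976 protein-coding genes, 30 lincRNAs, 24 antisense transcripts and 29 of other kinds. Their median fold over the highest other tissue was 48.5, and 474 genes exceeded 64-fold and 149 exceeded 1024-fold. For 80 genes no read was counted in any brain, liver or blood library. The genes just inside and just outside the limit were the natural killer cell receptor gene Kir3dl1, at 8.001 times its level in blood, and Edn1, which encodes endothelin 1, at 7.999 times its level in brain. Without skin replicate 1, 1049 genes (5.13%) were distinctive, and 972 of those found with all libraries (91.8%) were among them. The count changed in both directions between gene lists, from 11 to 8 for antimicrobial genes, from 10 to 7 for collagens and matrix, from 23 to 21 for Hox genes, from 31 to 27 for muscle, from 3 to 6 for melanocyte genes and from 8 to 10 for WNT, BMP, hedgehog and EDA signalling. The distinctive genes took 20.3% to 23.4% of the reads in each skin library and at most 0.183% in a brain, 0.0994% in a liver and 0.0396% in a blood library.

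**Figure D1:**
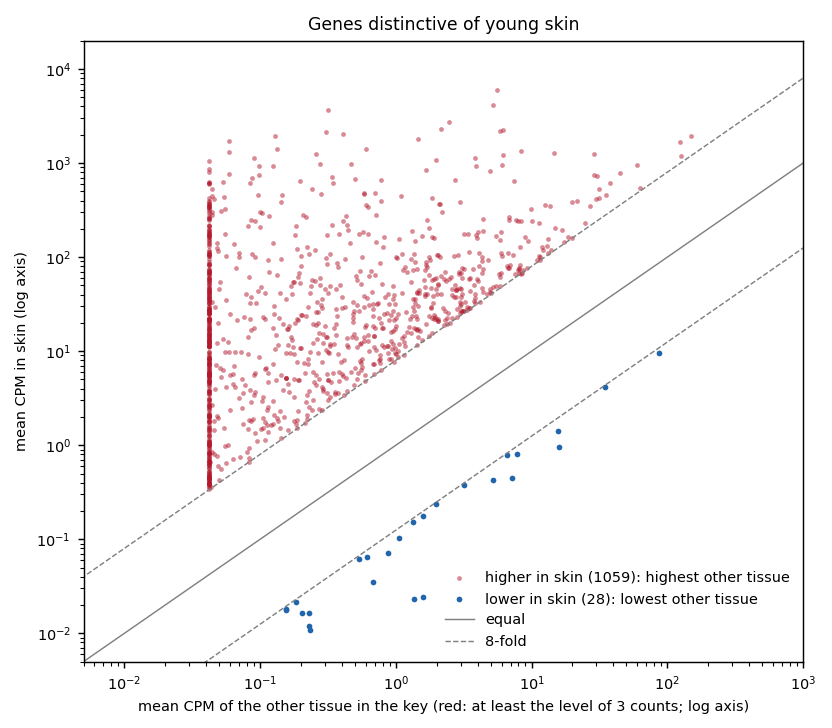
Mean CPM in the 5 young skin libraries (vertical, log scale) against the mean CPM of the other tissue used for the rule (horizontal, log scale), which is the highest one for distinctive genes and the lowest one for genes low in skin, 1 point per gene. The highest other tissue, and skin for the low genes, are set to at least the level of 3 counts. The distinctive genes lie 8-fold or more above the diagonal and the 28 distinctively low genes 8-fold or more below it.

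Per length of annotated exons, genes of hair and of muscle stood among the highest levels in the distinctive set. Krtap8-1, a keratin-associated protein of high glycine and tyrosine content in the hair shaft, had 2984 RPKM with all skin libraries and 3718 without replicate 1, and Krtap7-1, of the same kind, 2116 and 2637 RPKM. Krt71, a keratin of the inner root sheath, had 1691 and 2106 RPKM. Alpha-actin of skeletal muscle (Acta1) had 2690.3 RPKM with all libraries and 1242 without replicate 1, so its place among these genes depended on that library. The basal keratin Krt5 had 935 RPKM and the suprabasal keratin Krt10 1047 RPKM, and without replicate 1 they had 932 and 716 RPKM in the opposite order. Counts of keratin-associated proteins, small proline-rich proteins, late cornified envelope proteins and pairs such as Krt33a and Krt33b are uncertain, since near-identical copies can share reads.

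The epidermis was present in every skin library at high levels. All 12 keratins of the interfollicular epidermis were called higher in skin (40.6% of all genes were), and 11 were distinctive (5.17% of all genes were). Here and in the lists that follow, genes with few reads outside skin passed the filter on low counts through skin alone and had to differ, so the counts describe the lists and are no support for them. Krt5, the type II keratin of the basal layer (ENSMUSG00000061527, chromosome 15, 101707070 to 101712898, GRCm38), had 2081, 1879, 1930.0, 1841 and 2544 CPM in replicates 1 to 5, against means of 0.0412 in brain, 0.407 in liver and 0.0120 in blood. Its partner Krt14 (ENSMUSG00000045545, chromosome 11, 100203162 to 100207548) had 1184, 1199, 1122, 988 and 1776 CPM, against means of 0.0458 in brain, 0.259 in liver and 0.0482 in blood. The 5 skin libraries of both genes lay far above every library of the other tissues, and replicate 5 was the highest for both.

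Keratins of the layers above followed another order. Krt10 (ENSMUSG00000019761, chromosome 11, 99385254 to 99389364) had 5012, 1935, 1519, 1176 and 1427 CPM in replicates 1 to 5, against means of 5.90 in brain, 1.93 in liver and 0.713 in blood, a log2 difference of 10.10 ± 0.29 (SE) with an adjusted p of 1.26e-18 (edgeR). Krt77, a type II keratin (ENSMUSG00000067594, chromosome 15, 101858731 to 101869705), had 5071, 1962, 1525, 1222 and 1463 CPM, against a mean of 6.20 in brain and no read in blood. For both, replicate 1 was the highest skin library by more than 2-fold, and the other 4 lay close together. All skin libraries remained more than 100 times above the brain mean, the highest of the other tissues.

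**Figure D2:**
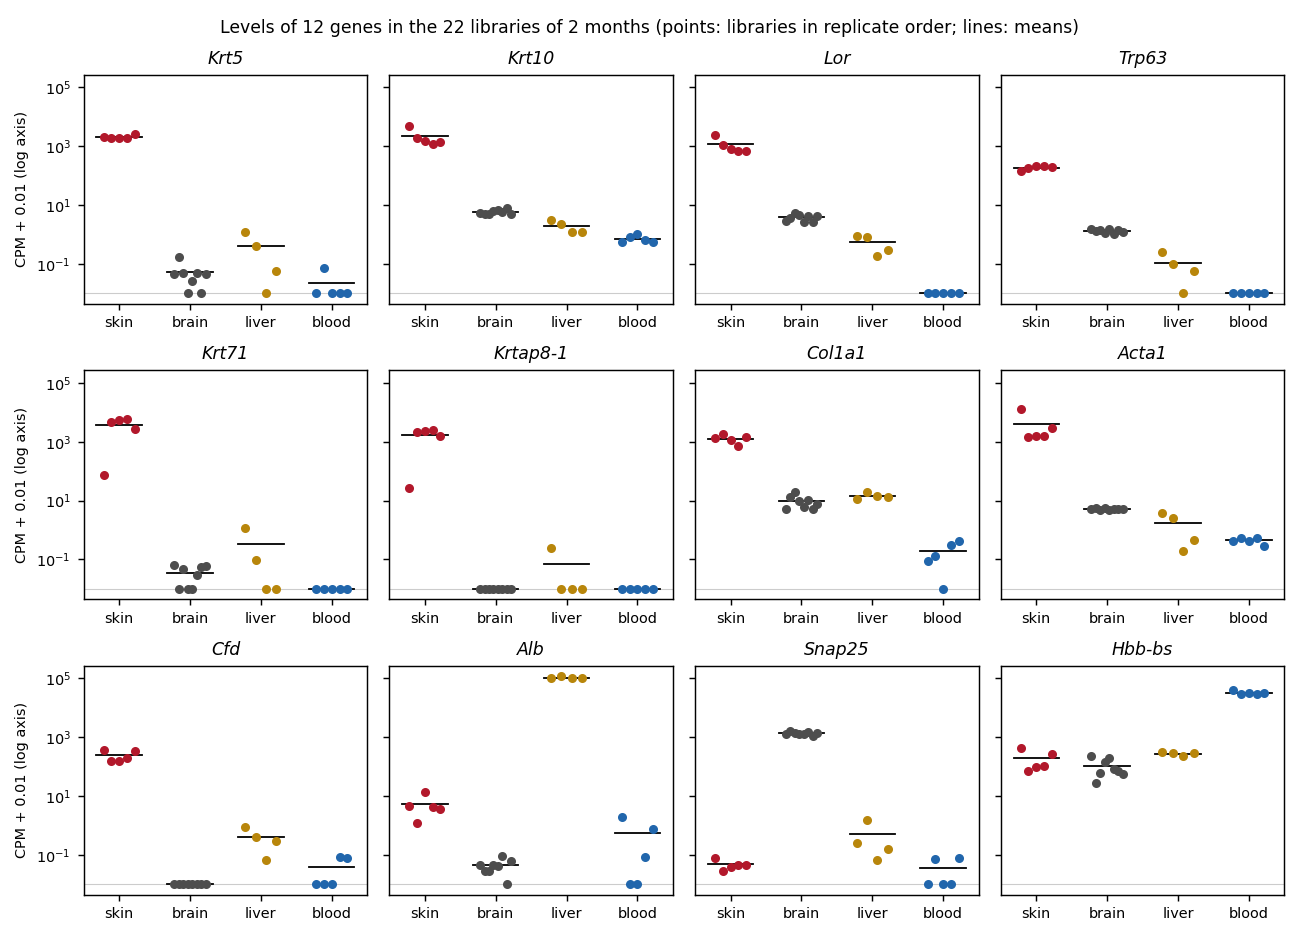
CPM of 12 genes (log axis, 0.01 added) in each of the 22 libraries of 2 months, by tissue, 1 point per library. The keratinocyte genes Krt5, Krt10, Lor and Trp63 are high in all 5 skin libraries, Krt71 and Krtap8-1 are low in skin replicate 1 only among skin libraries, Acta1 is highest in that library, and Alb, Snap25 and Hbb-bs mark liver, brain and blood.

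Genes of the envelope that closes the outer layer were higher in skin. Of 50 cornified envelope genes listed and found, 42 passed the filter on low counts. Those 42 were called higher, 40 were distinctive, and their median log2 difference was 12.07 beside 0.10 over all genes. With genes absent from a tissue set at the level of 3 counts, the median was 9.78. Loricrin (Lor, ENSMUSG00000043165, chromosome 3, 92080271 to 92083142), a main protein of the envelope, had 2491, 1063, 794, 701 and 669.8 CPM, with no read in blood and means of 3.80 in brain and 0.539 in liver. Krtdap, a secreted protein of differentiating keratinocytes, had 921, 359, 287, 212 and 512 CPM, at least 10844-fold higher than in blood, where no read was counted. Replicate 1 was the highest skin library for both genes. Sprr1a, a small proline-rich protein cross-linked into the envelope, had the opposite order, with 59.1, 661, 763, 925 and 687 CPM and replicate 1 the lowest.

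Genes that join keratinocytes to each other were higher in skin as well. Of 29 genes of desmosomes and other junctions all were called higher and 20 were distinctive, with a median log2 difference of 8.08. Perp, a membrane protein of desmosomes, had 1130.4, 1214, 1191, 1203 and 1272 CPM, a coefficient of variation of 0.0421 over the 5 libraries, where the median over all genes was 0.257. Liver also expressed it, at 125 CPM, so skin was 9.59 times higher than liver, 292 times higher than brain and 1800.4 times higher than blood. Desmoplakin (Dsp), which links desmosomes to keratin filaments, had 1652, 1726, 1759.7, 1895 and 1426 CPM and was 13.7 times higher than in liver. Corneodesmosin (Cdsn), which holds the outermost cells together, had 359, 396, 424, 501 and 317 CPM and at most 1.18 in a brain library. At the dermal side, 14 of 15 genes of the basement membrane and hemidesmosome were called higher and 5 were distinctive. Among these the hemidesmosome collagen Col17a1 had 776, 413, 369, 357 and 465 CPM and exceeded brain, the highest other tissue, 820.2-fold.

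Proteases and lipids of the barrier were largely higher in skin. The kallikrein Klk7, which cuts corneodesmosomes when cells are shed, had 268, 321, 279.7, 263 and 362 CPM, against means of 0.0384 in brain, 0.0443 in liver and 0 in blood. Serpinb5, a member of the serpin family known as maspin, had 247, 289.9, 302, 276 and 264 CPM. Of 28 such proteases and inhibitors 27 were called higher and 18 were distinctive. For barrier lipids the counts were 25 higher, 1 lower and 13 distinctive of 27. The lipase Lipm had 102, 118, 109, 98.2 and 105 CPM, while Elovl5, a fatty acid elongase also active in liver, was lower in skin, with 69.3 CPM on average against 516 in liver. The direction of Elovl5 reversed when libraries were scaled by total counts alone.

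**Figure D3:**
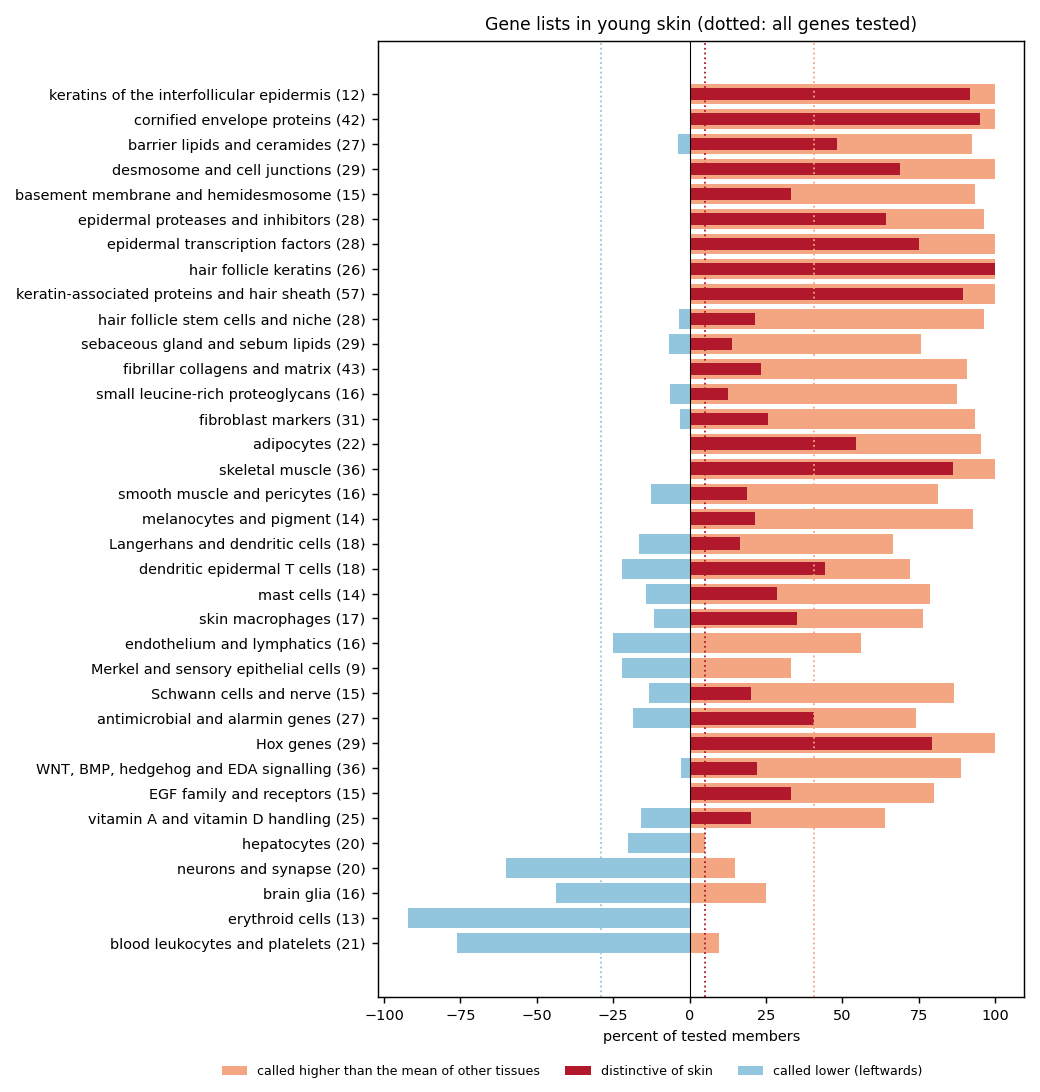
Percent of the tested genes of each of 35 gene lists (number tested in brackets) that were called higher in young skin (light bars), distinctive of it (dark bars) or lower (bars to the left), with dotted lines for all genes tested. Every tested gene of the lists of interfollicular keratins, cornified envelope, desmosomes, epidermal transcription factors, hair keratins, keratin-associated proteins, muscle and Hox genes is called higher, against 20 of 27 antimicrobial and 22 of 29 sebaceous genes. The lists of hepatocytes, neurons, erythroid cells and leukocytes hold no distinctive gene.

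The transcription factors of the epidermis were all higher in skin. Of 28 tested every one was called higher and 21 were distinctive, at a median log2 difference of 6.73, or 6.77 at the level of 3 counts. Trp63, the regulator of stratified epithelia (ENSMUSG00000022510, chromosome 16, 25683763 to 25892102), had 146, 186, 205, 209 and 195 CPM, with no read in blood and a mean of 1.31 in brain. Its 5 values lay close together, and all were far above every brain library. Grhl3, needed for the barrier, had 39.7, 31.5, 32.2, 31.0 and 29.5 CPM, and Klf4, also needed for it, had 202 ± 31.6 CPM (SD, n = 5). Klf4 was present elsewhere, at 14.9 CPM in blood, and its log2 difference was 5.13 ± 0.14 (SE), with an adjusted p of 3.31e-19 (edgeR). Gata3, which acts in keratinocytes and in T cells, had 123, 134, 132, 136 and 119 CPM against 8.22 in blood, a 15.7-fold difference. Most of the list had another order than Grhl3. Replicate 1 was the lowest skin library for 21 of the 28 genes and the highest for 5. The summed level of the list was 1523, 2712, 2839, 2892 and 2472 CPM in replicates 1 to 5.

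The lists of hair keratins and of keratin-associated and sheath proteins had the largest median differences of the 35 lists, while 2 other lists of the skin appendages, for follicle stem cells and their niche and for the sebaceous gland, had medians of 4.51 and 2.18. All 26 hair follicle keratins in the table passed the filter, were called higher and were distinctive, with a median log2 difference of 14.43, or 13.25 at the level of 3 counts and 14.66 without replicate 1. Of 58 keratin-associated and hair sheath proteins listed and found, 57 passed the filter, those were called higher and 51 were distinctive. Krt71 of the inner root sheath (ENSMUSG00000051879, chromosome 15, 101733949 to 101743109) had 71.3, 4546, 5381, 5851 and 2637 CPM in replicates 1 to 5, with no read in blood. Its liver libraries ranged from 0 to 1.18 CPM, and the liver mean rests mainly on a single library. Krtap8-1 (ENSMUSG00000059632, chromosome 16, 89487379 to 89487952) had 26.3, 2072, 2357, 2519.8 and 1587 CPM, no read in brain or blood and 4 reads in all liver libraries together. It was at least 262015-fold higher than in brain and at least 40514-fold higher than in blood. Replicate 1 was below the other 4 skin libraries by more than 20-fold for both genes, and it still exceeded every library of another tissue. The same held for trichohyalin (Tchh), which fills cells of the inner root sheath and medulla, at 89.0, 6274, 8113, 10990.4 and 4501 CPM.

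Regulators of the follicle shared that order. Hoxc13, a homeobox factor that controls hair keratin genes, had 2.67, 96.0, 108, 115 and 86.2 CPM, at least 12478-fold higher than in brain and at least 1929-fold higher than in blood. Dlx3, another homeobox factor of the follicle, had 18.7, 266, 294, 317 and 183 CPM. Krt17, a keratin of the outer root sheath, had 302, 1186, 1379, 1443 and 1350.0 CPM. The vitamin D receptor gene Vdr, which follicles need to cycle in the mouse, had 37.9 CPM in replicate 1 and 201 to 226 in the other 4. Replicate 1 was the lowest for all 4 genes, from 4.43-fold below the mean of the others for Krt17 to 38.0-fold for Hoxc13. Of 36 genes of WNT, BMP, hedgehog and EDA signalling 32 were called higher and 8 were distinctive. Wnt10b, a ligand made early in the growth phase of hair, had 4.93, 17.3, 16.7, 15.3 and 9.31 CPM, with replicate 1 the lowest and replicate 5 next. Pigment genes were low in the same 2 libraries. Tyrp1, an enzyme of melanin synthesis, had 0.786, 50.1, 72.9, 74.8 and 1.97 CPM and no read in liver or blood, and the summed level of the melanocyte list was 57.5, 331, 416, 436 and 109 CPM.

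**Figure D4:**
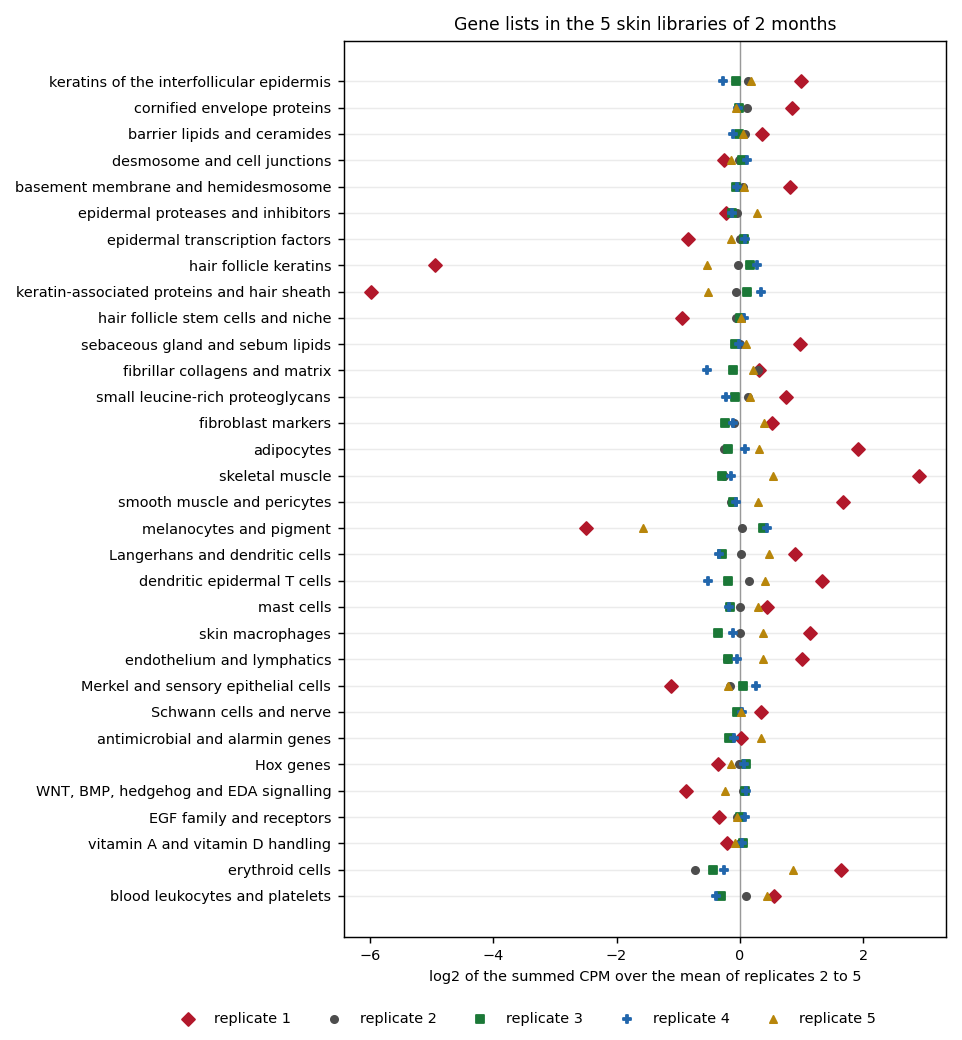
Summed CPM of gene lists in each of the 5 young skin libraries, as log2 of the ratio to the mean of replicates 2 to 5. Points are single libraries, for 32 of the 35 lists. Replicate 1 is far below 0 for hair keratins, keratin-associated proteins and melanocyte genes and above 0 for skeletal muscle, fat and the interfollicular epidermis.

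Start regions of the distinctive genes were read from RefSeq promoters of GRCm38.p6 (250 bases before to 50 after each start), which matched 728 of their symbols with 828 windows. The letters TATAAA on either strand stood in 26.4% of these windows and in 9.24% of the windows of all genes tested. On the gene's strand and 40 to 20 bases before the start they stood in 13.5% against 2.06%, and in 9 of 18 windows of distinctive hair keratins and 25 of 50 of keratin-associated and sheath genes. The letters TGANTCA, a core bound by AP-1 factors and read the same on both strands, stood in 14.1% against 6.08%, and in 42.1% of the windows of distinctive cornified envelope genes. CCAAT, a box found in promoters of all kinds, on either strand stood in 33.1% against 37.1%. A core bound by grainyhead-like factors such as Grhl3 stood in 0 of the distinctive windows and in 0.211% of the windows of all genes tested. A core of the family of Trp63 stood in 69.1% against 80.8%, so neither was more frequent in the distinctive windows. A match is a description of the letters only. Shown here are 5 windows of 150 bases (130 before to 20 after the start, on the gene's strand), chosen because Krt71, Krt25 and Krtap8-1 stand for the hair genes and Lor and Krtdap for the cornified layer. Capitals mark TATAAA and TGANTCA. All 5 hold TATAAA 40 to 20 bases before the start, so they do not show how often it stands there in their lists. Among windows of distinctive cornified envelope genes it stood there in 12 of 38. The positions are chr15:101743078-101743227 (minus strand), chr11:99322932-99323081 (minus), chr16:89487933-89488082 (minus), chr3:92083123-92083272 (minus) and chr7:30787775-30787924 (plus).
Krt71: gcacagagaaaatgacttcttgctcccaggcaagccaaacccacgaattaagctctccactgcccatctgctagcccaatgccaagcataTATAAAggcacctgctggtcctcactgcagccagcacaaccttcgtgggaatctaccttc
Krt25: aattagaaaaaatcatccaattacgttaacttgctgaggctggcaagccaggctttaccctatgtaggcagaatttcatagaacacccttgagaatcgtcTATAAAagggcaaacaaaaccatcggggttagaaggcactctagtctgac
Krtap8-1: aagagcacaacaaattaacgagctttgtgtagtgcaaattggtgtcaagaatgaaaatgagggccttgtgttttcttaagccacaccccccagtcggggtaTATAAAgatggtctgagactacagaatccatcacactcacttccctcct
Lor: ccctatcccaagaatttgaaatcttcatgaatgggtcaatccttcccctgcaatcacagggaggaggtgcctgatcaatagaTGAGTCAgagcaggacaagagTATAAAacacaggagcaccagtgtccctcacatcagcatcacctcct
Krtdap: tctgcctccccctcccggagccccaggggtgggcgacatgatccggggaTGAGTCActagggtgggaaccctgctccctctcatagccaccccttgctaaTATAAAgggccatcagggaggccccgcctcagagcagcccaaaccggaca
In these windows TATAAA began 40 bases before the start in Krt71, 30 in Krt25, 29 in Krtap8-1, 27 in Lor and 30 in Krtdap, and TGANTCA began 48 before in Lor and 81 before in Krtdap.

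The dermis and the fat below it were present in all 5 libraries. Of 43 genes of fibrillar collagens and matrix 39 were called higher and 10 were distinctive. Col1a1, a chain of type I collagen (ENSMUSG00000001506, chromosome 11, 94936224 to 94953042), had 1288, 1768, 1184, 699 and 1477 CPM, a log2 difference of 8.75 ± 0.31 (SE) with an adjusted p of 6.04e-17 (edgeR). Col3a1, of type III collagen, had 1246, 1114, 809.7, 588 and 1072 CPM against 60.1 in liver, and Dpt (dermatopontin) had 204, 81.4, 69.4, 80.8 and 122 CPM. Replicate 4 was the lowest skin library for both collagens, and replicate 1 was within the range of the others for Col1a1. Of 22 adipocyte genes 21 were called higher and 12 were distinctive. Cfd (adipsin), a complement protease secreted by fat cells, had 377, 158, 160.3, 192 and 329 CPM, no read in brain and 0.410 CPM in liver. Fabp4, the fatty acid carrier of fat cells, had 403, 251, 307, 415 and 412 CPM against 12.6 in blood and 11.9 in liver.

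Genes of skeletal muscle, which forms a sheet under mouse skin, were among the distinctive genes. All 36 muscle genes were called higher and 31 were distinctive, with a median log2 difference of 9.30, or 8.66 at the level of 3 counts. Without replicate 1, 33 of 36 tested were higher, 2 lower and 27 distinctive, with a median of 8.01. Acta1 (ENSMUSG00000031972, chromosome 8, 123891769 to 123894751) had 13028, 1497, 1518, 1605 and 3014 CPM in replicates 1 to 5, 799.7-fold over brain with all skin libraries and 369-fold without replicate 1. Tnnt3, a troponin of fast fibers, had 6087, 572, 576, 632 and 1089.5 CPM, and Mylpf, a myosin light chain of fast fibers, 3114 CPM in replicate 1 and 303 to 730.5 in the other 4. Myh2, a fast myosin heavy chain, had 1345, 84.5, 81.8, 83.8 and 97.6 CPM. Replicate 1 was highest for all 4 genes and replicate 5 was next, while replicates 2 to 4 lay close together. The whole muscle list had a summed level of 8996 to 82152 CPM in skin and at most 199 in a brain library.

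Immune cells of skin were compared with blood, itself rich in leukocytes. Of 18 genes of dendritic epidermal T cells, the gamma-delta T cells of mouse epidermis, 13 were higher, 4 lower and 8 distinctive. Of the 8, 7 were Skint genes and 1 was the receptor segment Tcrg-V5. Skint genes are expressed by keratinocytes and thymic epithelium, and the founding member is needed in the mouse to select those T cells, so these counts are not counts of T cell genes. The summed level of the 18 genes was 122 to 439 CPM in skin and 637 to 722 in blood. Skint10 had 51.6, 22.5, 18.3, 15.6 and 27.8 CPM and Skint7 had 68.5, 28.1, 23.6, 18.8 and 33.2 CPM, and no read of Skint10 was counted in brain, liver or blood. For mast cells 11 of 14 genes were higher, 2 lower and 4 distinctive, beside 40.6%, 29.0% and 5.17% of all genes. Of these the chymase gene Mcpt4 had 22.5, 12.6, 10.1, 8.84 and 17.0 CPM. For skin macrophages 13 of 17 genes were higher, 2 lower and 6 distinctive, and for Langerhans and dendritic cells 12 of 18 genes were higher, 3 lower and 3 distinctive. The summed level of the latter list was 539.7 to 1258 CPM in skin and 8822 to 12052 in blood, so blood lay above skin. Retnla, a secreted protein of alternatively activated macrophages and fat, had 281, 70.5, 70.2, 109 and 114 CPM, 10.8-fold over blood, and was no longer distinctive without replicate 1. Among antimicrobial genes, 20 of 27 were higher, 5 lower and 11 distinctive. Their summed level was 506 to 728 CPM in skin, 3080 to 5447 in blood and 1959 to 8360 in liver, so both lay above skin. The beta-defensin Defb6 had 14.6, 27.3, 22.5, 19.7 and 60.9 CPM, with replicate 5 the highest, and no read in the other tissues.

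Hox genes, which keep the address of a cell along the body, were also higher in skin than the mean of brain, liver and blood. Of 39 listed and found, 29 passed the filter on low counts. Those were called higher and 23 were distinctive, with a median log2 difference of 7.24, or 6.05 at the level of 3 counts. Hoxc8 had 18.7, 10.9, 12.8, 11.4 and 10.8 CPM and Hoxc6 had 18.2, 10.2, 11.8, 9.79 and 11.8 CPM, with replicate 1 the highest of the skin libraries for both. Hoxc10 had 6.36, 0.535, 0.534, 0.518 and 0.160 CPM, with replicates 2 to 5 under 1 CPM, and it did not pass the filter on low counts without replicate 1. The list had no single order. Of the 29 genes, replicate 1 was the highest skin library for 16 and the lowest for 8. Hoxb6 had 5.12 CPM in replicate 1 and 11.4 to 14.4 in replicates 2 to 5, and Hoxb7 had 4.05 and 9.19 to 12.5. The summed level of the list was lowest in replicate 1, at 185.8 CPM. Hoxc13, a member of the list, had 2.67 CPM there and 86.2 to 115 in replicates 2 to 5. Genes of a Hox cluster overlap, and the sources used here do not say if counting was strand-specific, so reads shared between neighbours and antisense transcripts are uncertain.

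The genes stood side by side on the chromosomes in places. Of 1045 distinctive genes with a position, 240 lay in 18 runs of at least 5, where 1 other tested gene was allowed between neighbours. The largest, on chromosome 3 from 90775946 to 93399442, held 37 distinctive genes of 43 tested, with Lor, the Sprr genes and the Lce1 genes of the cornified envelope. Chromosome 16 from 88560828 to 89571183 held 33 of 35, mostly keratin-associated proteins with Krtap8-1 and Krtap7-1. Chromosome 11 from 99771714 to 100135928 held 30 of 31, with the type I hair keratins, and chromosome 15 from 101347444 to 101954287 held 21 of 25, the type II keratins from Krt80 to Krt78 with Krt5, Krt71 and Krt77. A run on chromosome 11 from 67112461 to 67371586 held 8 of 8, among them the myosin heavy chain genes Myh2, Myh1, Myh4, Myh8 and Myh13.

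Few genes were distinctively low in young skin, where the gene had to lie below all 3 other tissues. Slc30a10, a manganese exporter, had 0.0119 CPM on average in skin, against means of 19.8 in brain, 63.2 in liver and 0.228 in blood. Ddx25, an RNA helicase, had 0.0163 CPM, against means of 29.4 in brain, 0.205 in liver and 5.83 in blood. Chrm3, a muscarinic acetylcholine receptor, had at most 0.0714 CPM in a skin library, against means of 15.5 in brain, 0.799 in liver and 0.684 in blood. Trpm2, a cation channel, was measurable in all skin libraries at 0.643, 0.459, 0.296, 0.375 and 0.479 CPM, against means of 27.0 in brain, 11.8 in liver and 7.11 in blood, a log2 difference of -4.88 ± 0.28 (SE) with an adjusted p of 3.72e-13 (edgeR). For the first 3, the skin values rest on at most a few reads per library.

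Other ages gave values that the rule at 2 months had not used. With the same rule in the libraries of each age, 1013 genes (5.01%) were distinctive of skin at 9 months, 1035 (5.11%) at 15 months, 980 (4.81%) at 24 months and 919 (4.54%) at 30 months. Of the distinctive genes of 2 months, 947 (at 30 months) to 989 (at 15 months) passed the filter at each of those ages, and 854 (80.6%), 901 (85.1%), 829 (78.3%) and 760 (71.8%) were distinctive again. All 11 distinctive keratins of the interfollicular epidermis and all 31 distinctive muscle genes were so at every age. Of the 51 keratin-associated and sheath genes, 40, 47, 22 and 39 were, and of the 10 collagen and matrix genes 9, 10, 5 and 3. Some brain libraries of 9 and 15 months nearly coincided, so they are not fully separate replicates. Without brain replicates 4 to 8, the genes of 2 months distinctive again were 876 (82.7%) at 9 months and 960 (90.7%) at 15 months.

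The spread between skin libraries recurred at the other ages. The summed hair keratins, in libraries scaled within each age, ranged from 796 to 29736 CPM at 2 months, 539 to 15973 at 9, 799.9 to 15682 at 15, 747 to 15157 at 24 and 618 to 4732 at 30 months. Their medians were 23896, 1693, 6640.3, 1113 and 885 CPM, in no steady order with age. Replicates 2 to 5 of 2 months, at 16872 to 29736 CPM, lay above every skin library of the other ages. The muscle genes had medians of 9982, 32538, 27193, 42013 and 43888 CPM at the same ages, with ranges of 8996 to 82152, 18349.9 to 71088, 3766 to 49940.3, 24566 to 47232 and 30187 to 138330.0 CPM that overlapped between all ages. For 2 months, the overlap with 9, 24 and 30 months rested on replicate 1. Replicates 2 to 5, at 8996 to 15845 CPM, lay below every skin library of those 3 ages. The hair level of replicate 1 of 2 months lay inside the ranges at 9, 24 and 30 months and just below the lowest library of 15 months, and its muscle level lay inside the range at 30 months and above the ranges at 9, 15 and 24 months.

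**Figure D5:**
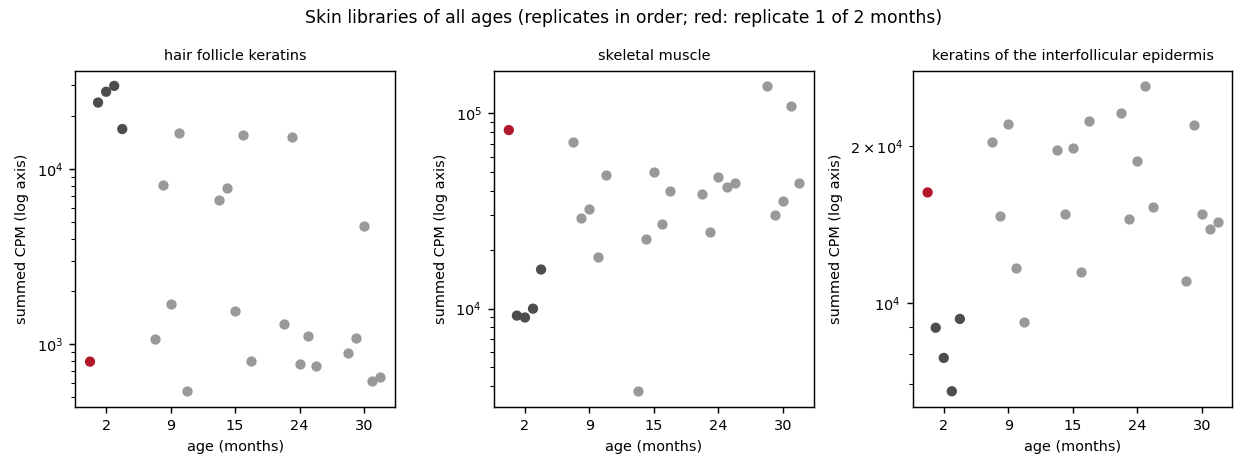
Summed CPM (log axis, libraries scaled within each age) of 3 gene lists in the 25 skin libraries by age in months, 1 point per library. Hair keratins spread widely between libraries of every age, from 618 to 4732 CPM at 30 months and more at the other ages.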

How the data were processed

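The authors sequenced total RNA in single-end runs of 50 nt, aligned reads to GRCm38 with TopHat 2.0.6 and assigned them to genes with HTSeq 0.5.3p9 and later featureCounts 1.4.3-p1, with bcl2fastq 1.8.3 and CASAVA 1.7 named in the processing notes of the submitters. Libraries that stood apart on scaling plots were set aside by the authors. The deposited tables hold whole-number counts per gene and RPKM values calculated by the authors. Whether strand was used in counting is not given in the sources used here.

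The 22 libraries of 2 months were grouped from the labels, and 37315 genes of the count table were filtered with filterByExpr and tested with edgeR 4.0.16 in R 4.3.3 (TMM, robust quasi-likelihood fit, Benjamini-Hochberg adjusted p under 0.05), as skin minus the mean of brain, liver and blood and against each tissue. The standard error is that of the log2 fold change. A mean in another tissue was set to at least the level of 3 counts over the group in folds, and such a level covers counting error only. The gene lengths behind the deposited RPKM did not follow the annotation (Spearman rho = -0.0016 across 14296 genes), so RPKM was recomputed from counts with GENCODE vM21 exon lengths, which also gave positions for 35449 genes. In simulated counts for 20489 genes, 80 of 100 genes changed 2-fold and 100 of 100 changed 8-fold were called, and 26 of the latter met the rule for distinctive genes. The simulated tissues shared a single profile apart from these genes, with the same spread for every gene and no outlying library. A change of 8-fold sits at the limit of the rule, so the 26 do not measure how the rule does in the real data.

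The members and gene lists were chosen with earlier results of these data known. Genes were named by rule: the 20 distinctive genes of largest fold and the 15 of highest RPKM, the 10 of largest spread over skin libraries, the 8 low genes of largest fold, per list the 3 distinctive members of highest RPKM (members called higher where none was distinctive) and 1 member called lower, all distinctive Hox, signalling and transcription factor genes, and tissue markers. The sets by fold and by spread needed a mean of at least 20 CPM in skin, and predicted genes and receptor segments were left out. Part of these are printed, and some are not reported here. Kir3dl1 and Edn1 were added as the genes at the limit, after their values were seen.

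Skin and blood came from the same animals by the numbers in the titles. The deviations of the 5 pairs of same animals from the group means correlated at -0.0200 to 0.0151. Alternatives were other scalings, filters, tests (limma 3.58.1 voom, DESeq2 1.42.0), fold limits, a tissue left out, each library left out, the animal as a block and an added liver library from a separate table, not used otherwise.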

Additional observations from a re-analysis of the deposited data

Results flagged for a closer look

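In each of 35 lists and 49 genes, the gap between the highest or lowest skin library and the nearest other one was divided by the range over the 5 libraries and set against the Dixon limit, which chance passes in about 1 of 20 groups. It was passed by 11 lists and 19 genes, 28 of these 30 at replicate 1. The rate of 1 in 20 does not apply to this count. All lists and genes share the same 5 libraries, and a rule for naming genes used the spread over them. The count is a description only. The hair follicle keratins did not pass, since replicate 5 also lay below replicates 2 to 4. For lists, the ratio of gap to range was 0.906 for skeletal muscle, 0.881 for the basement membrane, 0.880 for the sebaceous gland, 0.863 for adipocytes, 0.858 for smooth muscle, 0.845 for the cornified envelope, 0.808 for glia, 0.801 for Schwann cells, 0.791 for neurons and 0.732 for interfollicular keratins, all with replicate 1 highest. It was 0.837 for hair follicle stem cells and niche, with replicate 1 lowest.

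Among genes with replicate 1 highest, the ratio was 0.988 for Myh2, 0.906 for Tnnt3, 0.868 for Acta1 and 0.848 for Mylpf of muscle. It was 0.808 for Krt77, 0.802 for Krt10, 0.784 for Lor, 0.742 for Col17a1 and 0.737 for Grhl3 of the epidermis, and 0.939 for Hoxc10, 0.762 for Hoxc6 and 0.754 for Hoxc8. It was 0.793 for Retnla and 0.7102 for Skint7. With replicate 1 lowest, it was 0.866 for Vdr, 0.774 for Krt17 and 0.747 for Hoxc13. Replicate 5 was the highest for Krt14, at 0.733, and Defb6, at 0.725. The cause was not tested.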

How the results depend on the processing

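The count of distinctive genes ranged from 1013 to 1065 when single libraries were left out, and was 1984 without brain and 2210 with no fold asked. It was 186 with the filter of the study (no library at 0) applied to the 22 libraries of 2 months alone. The study had applied it over all samples of an organism. The 28 distinctively low genes became 5 with scaling by total counts, 206 without brain, 189 without liver, 220 without blood, 70 at 4-fold, 6 at 16-fold and 523 with no fold asked, and 23 to 39 with single libraries left out. With the filter of the study, applied to the same 22 libraries, 10834 genes differed from brain. Testing for over 2-fold left 6764 genes that differed from the mean of the tissues. The median coefficient of variation of the distinctive genes over skin libraries, 0.513, was 0.226 without replicate 1, an alternative chosen after seeing the data, and up to 0.552 with another skin library left out. Scaling by total counts shifted the median log2 difference of all genes from 0.10 to 1.13, and the share of called genes that were higher in skin from 56.3% to 84.2% against liver and from 61.5% to 86.4% against blood. It reversed Elovl5 (0.035), Ihh (0.056), Podnl1 (0.15), Thy1 (0.61) and Ugcg (0.81 on the log2 scale). Camk2a was no longer called without skin replicate 1 (0.50, edgeR adjusted p = 0.14). By deposited RPKM the leading member was unchanged in 8 of 35 lists. With the animal as a block, 13948 genes differed between skin and blood, against 14231 without it, and limma voom with animals as a random block called 15747 genes against the mean of tissues. The block ended the call of no named gene of 186. Named genes lost without skin replicate 1 from the distinctive set were Ampd1, Asb2, Btc, Hoxa3, Hoxc10, Itgb4, Kera, Klf5, Lmod1, Pvalb, Retnla and Tslp. Low values in blood and liver rest on fewer libraries than in brain, so 3 counts equal 0.0423 CPM in blood, 0.0391 in liver and 0.00654 in brain.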

Other observations

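Genes of the EGF family and its receptors were mostly called higher in young skin than the mean of the other tissues. Of 15, 12 were called higher and 5 were distinctive, beside 40.6% and 5.17% of all genes (median log2 difference 3.24, against 0.10 over all genes). The summed level of the list was 413 to 553 CPM in skin and 2403 to 3618 in liver, so liver lay above skin. The receptor gene Erbb2 had 94.5, 109, 109.8, 112 and 97.0 CPM in replicates 1 to 5, and the ligand gene Areg had 0.786, 8.85, 8.83, 9.32 and 8.14 CPM with no read in liver or blood. Replicate 1 was the lowest for both. Of 25 genes of vitamin A and vitamin D handling 16 were higher, 4 lower and 5 distinctive. The retinoic acid receptor gene Rarg had 126, 138, 142, 126 and 122 CPM, and Crabp2, a carrier of retinoic acid, 24.6, 37.5, 42.5, 41.5 and 57.4 CPM. Aldh1a1, which makes retinoic acid, was lower in skin, at 33.6 CPM on average and 16.8 without replicate 1, against 5149 in blood.

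Nerve, vessel and sensory genes of skin were compared in the same way, beside 40.6% higher and 29.0% lower over all genes. Of 15 Schwann cell genes 13 were higher, 2 lower and 3 distinctive. Of 16 endothelial and lymphatic genes 9 were higher, 4 were lower and 0 were distinctive. Of 9 Merkel cell genes 3 were higher, 2 were lower and 0 were distinctive.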
